A study of Schizosaccharomyces pombe with 6 samples.

Results

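The gene sty1 of the fission yeast Schizosaccharomyces pombe encodes the MAP kinase Spc1, also called Sty1, and is the gene whose product was overexpressed in this experiment. It was taken as the probe set that carries the symbol sty1 in the authors' deposited comparison tables, 1775145_at, which is 1 of 8960 probe sets other than controls on the array. The array also carries probe sets for the budding yeast Saccharomyces cerevisiae. Of those with a name, 76 were for S. pombe and 116 for S. cerevisiae. Most of the 8960 have no name here, so ranks, shares and adjusted p-values over all probe sets cover both species. The table entry gives the locus as SPAC24B11.06c. Cells carried an empty vector, a construct labelled Spc1, or a construct labelled Spc1K49R, and each of these 3 groups had 2 arrays labelled as biological replicates. The form Spc1K49R is named for the substitution K49R, a lysine (K) to arginine (R) change at residue 49 counted from the first residue of the protein. Strain genotype, vector, promoter and growth conditions are not given in the sources used here, and the labels do not say whether the chromosomal copy of sty1 was present. They also do not say how the replicate cultures were separated, so p-values measure the spread between these arrays.

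Spc1 is the MAP kinase of the fission yeast stress cascade. Sensor proteins and the MAP kinase kinase kinases Wis4 and Win1 activate the MAP kinase kinase Wis1, which phosphorylates Spc1. Phosphorylated Spc1 enters the nucleus and acts through the transcription factor Atf1 and its partner Pcr1, while the tyrosine phosphatases Pyp1 and Pyp2 switch it off. The lysine changed in K49R lies in the pocket that binds ATP, and kinases with this change are used as catalytically inactive forms. The array measured RNA, so the values below concern the abundance of sty1 transcript and not the activity of the kinase. The files used here give no probe sequences, and how far the probe set reads the chromosomal and the introduced copy, or the Spc1 and Spc1K49R forms, was not tested. In the gene table of assembly ASM294v3 a non-coding RNA, SPNCRNA.622, overlaps sty1, and whether the probe set also reads it was not tested.

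The level of sty1 was high on 3 arrays and low on the other 3, and this division did not follow the labels throughout. Values are log2 signals that the authors had normalized and centred on the median of the 6 arrays, so they give differences between arrays and no absolute level. On the 2 empty-vector arrays sty1 read -1.07 and -1.04. On the 2 Spc1 arrays it read 1.04 and 1.49. On the array labelled Spc1K49R replicate 1 it read 1.20, between the 2 Spc1 values, and on the array labelled Spc1K49R replicate 2 it read -1.37, the lowest of the 6. Both Spc1 arrays therefore lay above both empty-vector arrays, whereas the 2 Spc1K49R arrays lay on either side of them. In order from the highest, the arrays were Spc1 replicate 2, Spc1K49R replicate 1, Spc1 replicate 1, empty vector replicate 2, empty vector replicate 1 and Spc1K49R replicate 2. The step between Spc1 replicate 1 and empty vector replicate 2 was 2.08 log2 units, and the other 4 steps were between 0.03 and 0.30. Neighbours in this order other than those across the large step differed by no more than 0.30, less than the 0.45 that separated the 2 Spc1 arrays.

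**Figure D1:**
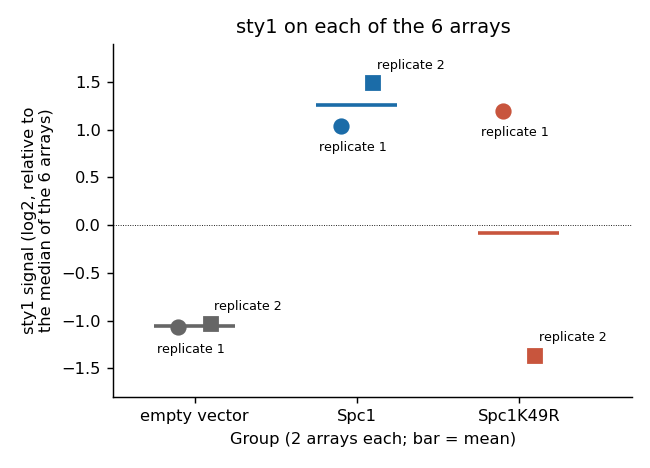
The log2 signal of sty1, relative to the median of the 6 arrays, is plotted for each array by group, with a bar at the mean of the 2 arrays. The Spc1 arrays and the array labelled Spc1K49R replicate 1 lie between 1.04 and 1.49, and the remaining 3 arrays lie between -1.37 and -1.04.

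The first comparison asked whether cells given the Spc1 construct had more sty1 transcript than cells with the empty vector. Set against each empty-vector array in turn, Spc1 replicate 1 held 4.32 and 4.22 times as much sty1 signal and Spc1 replicate 2 held 5.89 and 5.76 times as much. The mean was 1.26 ± 0.32 (SD, n = 2) with Spc1 and -1.06 ± 0.02 (SD, n = 2) with empty vector. In the limma fit of all 6 arrays Spc1 exceeded empty vector by 2.32 log2 units (standard error 0.83), a 4.99-fold excess with a 95% interval of 1.14 to 21.9. This difference did not pass the test over all probe sets, with an adjusted p of 0.79 by limma and an unadjusted p of 0.0383. The threshold was an adjusted p of 0.05, which 0% of the 8960 probe sets met in this comparison, while 1.21% had an unadjusted p under 0.05. Both Spc1 arrays lay above both empty-vector arrays for 10.5% of all probe sets, so that order alone does not set sty1 apart. For mutant B and wild type the authors' deposited table gives sty1 a log2 fold change of 2.43 and an unadjusted p of 0.00066. Of the authors' 3 deposited tables it is the 1 that lists sty1. The sty1 probe set was found through that listing, and the listing comes from these same arrays. Its p-value is therefore not independent of the limma fit here.

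The size of the rise set sty1 apart on the Spc1 arrays more than its p-value did. By the difference of the group means sty1 ranked 2 from the top and 4 by absolute size, and by p-value it ranked 57. With each array taken minus the mean of the 2 empty-vector arrays, sty1 was 2.54 higher on Spc1 replicate 2, which was rank 1 of 8960 probe sets. The next highest probe set on that array was at 1.54. On Spc1 replicate 1 sty1 was 2.09 higher, but it ranked 37 there, because values on this array were widely scattered. The SD of that difference over all probe sets was 0.80 for replicate 1 and 0.23 for replicate 2 of Spc1. Taking for each probe set the lower of its 2 Spc1 differences, sty1 was rank 1 at 2.09, and the next was the unnamed probe set 1769322_s_at at 1.25. On Spc1 replicate 1 alone 1769322_s_at was the highest of all, at 4.996, so the rank of sty1 depends on the measure. The probe sets sty1 and 1769322_s_at were the 2 that were at least 1 log2 unit above the empty-vector mean on both Spc1 arrays. Of these, sty1 was the 1 that exceeded it by at least 2. These ranks describe the arrays and carry no test.

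**Figure D2:**
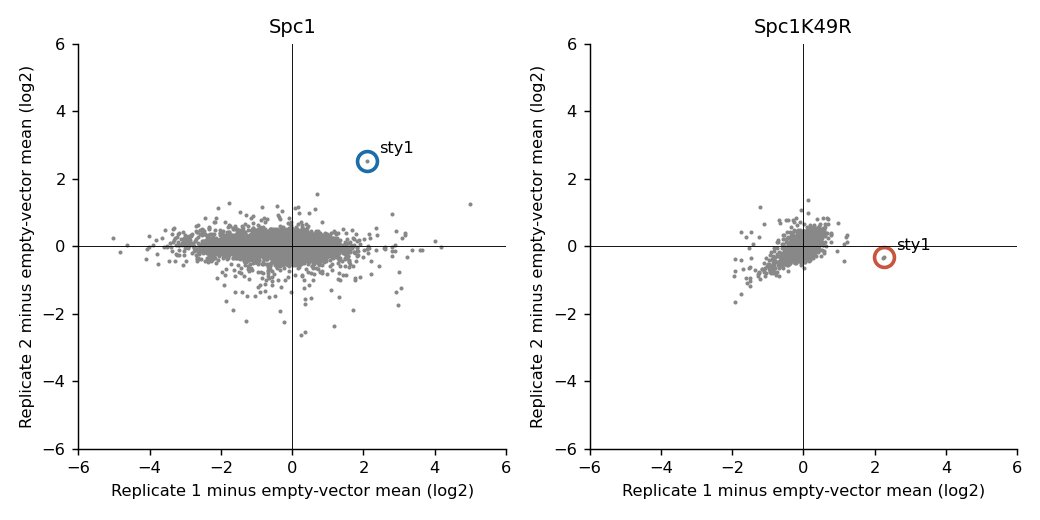
Each point is a probe set, placed by its log2 difference from the empty-vector mean on replicate 1 (horizontal axis) and replicate 2 (vertical axis), for Spc1 (left) and Spc1K49R (right), with sty1 circled. With Spc1, sty1 lies at 2.09 and 2.54, away from the other points. With Spc1K49R it lies at 2.25 and -0.31, and the circle also encloses the unnamed probe set 1774882_at.

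The second comparison asked the same of the Spc1K49R construct, and its 2 arrays gave opposite answers. The array labelled Spc1K49R replicate 1 held 4.82 and 4.71 times the sty1 signal of the 2 empty-vector arrays, within the range of the ratios for Spc1. Relative to the empty-vector mean sty1 was 2.25 higher on this array and rank 1 of 8960, just ahead of the unnamed probe set 1774882_at at 2.23. The array labelled Spc1K49R replicate 2 held 0.81 and 0.79 times the empty-vector signal, and sty1 at -0.31 was 280th from the lowest of all probe sets. The group mean was -0.09 ± 1.81 (SD, n = 2), which exceeded that of the empty vector by 0.97 with a standard error of 0.83 and a 95% interval of -1.17 to 3.10. By limma the unadjusted p was 0.296 and the adjusted p rounded to 1. The threshold of 0.05 was met by 0% of probe sets after adjustment and by 0.0893% before it. Leaving out the array labelled Spc1K49R replicate 2 gave 2.25, and leaving out Spc1K49R replicate 1 gave -0.31, so the direction rests on which array is kept.

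The sty1 difference between the Spc1K49R arrays stood out from the rest of those arrays. The 2 arrays differed by 2.57 for sty1, rank 2 of 8960, where the median difference over all probe sets was 0.09 and the 99th percentile 0.57. Only 4 probe sets, 0.0446%, differed by 2 or more between these arrays, and the other 3 were unnamed. The largest difference of the 8960 was that of 1774882_at, with 2.22 and -0.35 on the Spc1K49R arrays, -0.15 and 0.14 on the empty-vector arrays and 0.87 and -0.14 on the Spc1 arrays. This probe set therefore shared the high value on Spc1K49R replicate 1 with sty1, but on Spc1 replicate 2 it was not raised. Between the 2 Spc1 arrays sty1 differed by 0.45, close to the median of 0.42 for all probe sets, and between the 2 empty-vector arrays it differed by 0.03 against a median of 0.17. With sty1 left out, the root mean square difference of the array labelled Spc1K49R replicate 2 was 0.164 from empty vector replicate 2, 0.184 from its own replicate and 0.348 from empty vector replicate 1, with 0.191 from Spc1 replicate 2. Its distance from its own replicate was thus between those from the 2 empty-vector arrays, and the reason for its low sty1 value was not tested.

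**Figure D3:**
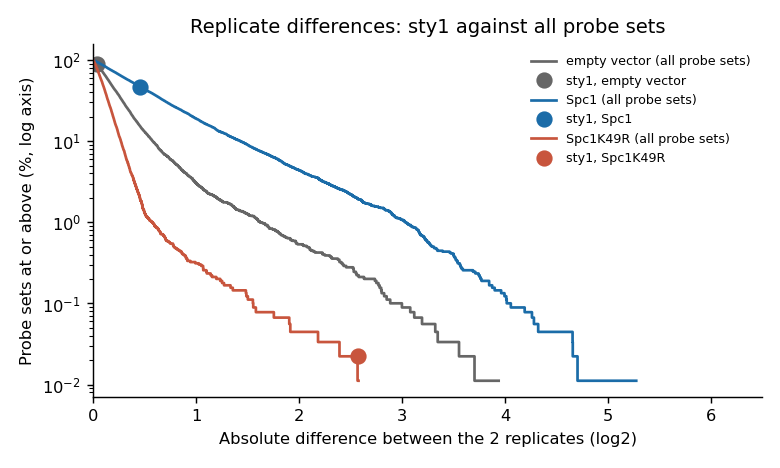
The share of all 8960 probe sets (percent, log axis) whose 2 replicates differ by at least the amount on the horizontal axis (log2) is drawn for each group, with sty1 marked on its group's line. With Spc1K49R sty1 sits at 2.57, at the far end of the line, while with empty vector and Spc1 it sits at 0.03 and 0.45, within the bulk of probe sets.

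The third comparison set the 2 forms against each other. The Spc1K49R mean was below the Spc1 mean, with a log2 difference of -1.35 (standard error 0.83) and a 95% interval of -3.48 to 0.78, which includes both no difference and a large one. By limma the unadjusted p was 0.165 and the adjusted p 0.717, and 0% of probe sets met the threshold after adjustment and 1.02% before it. Taken alone, the array labelled Spc1K49R replicate 1 was 1.12 times Spc1 replicate 1 and 0.82 times Spc1 replicate 2. The array labelled Spc1K49R replicate 2 was 0.19 and 0.14 times those arrays. Without that array the difference was -0.07 with a 95% interval of -0.87 to 0.74, and without Spc1K49R replicate 1 it was -2.63 with an interval of -3.44 to -1.83. Each of these intervals assumes that the lone array varies like the other groups. The 3 comparisons share arrays in pairs, so their values are not independent of each other.

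The spread of sty1 within groups set the width of these intervals. Its standard error of 0.83 in the fit was rank 225 from the largest of 8960, where the median was 0.21, and it is shared by the 3 comparisons because the fit has a single spread per probe set. Most of it came from the Spc1K49R arrays, with an SD of 1.81 against 0.32 for Spc1 and 0.02 for empty vector. When the fit was limited to the 4 arrays from the Spc1 and empty-vector groups, the standard error for sty1 fell to 0.24 and the unadjusted p to 0.000584, while the adjusted p by limma was 0.951. With 2 arrays a group an exact two-sided permutation test cannot give a p below 0.333, so none was made.

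**Figure D4:**
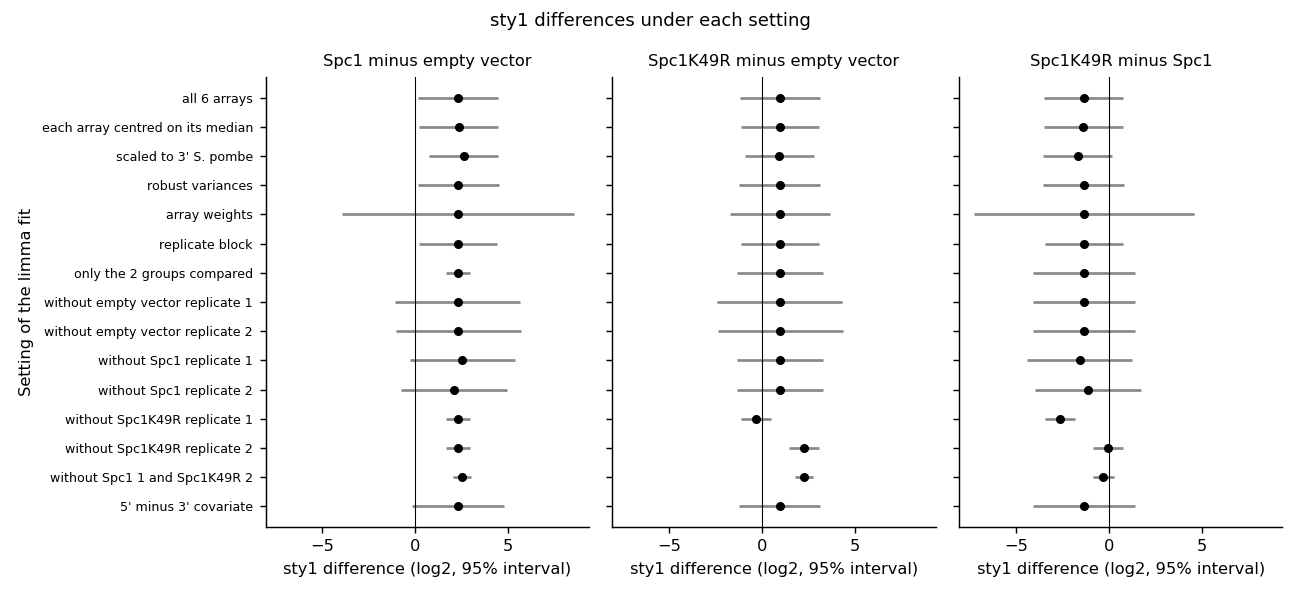
The log2 difference of sty1 (points) and its 95% interval from limma (lines) are drawn for each comparison under each setting of the fit. For Spc1 against empty vector the points stay between 2.09 and 2.61, whereas for both comparisons with Spc1K49R the points move when either Spc1K49R array is left out.

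The state of the RNA was read from control probe sets on the same arrays. The 5′ end of a control transcript minus its 3′ end, averaged over 6 S. pombe control genes, was -1.53 on Spc1 replicate 1, against -0.56 to 0.40 on the other 5 arrays, so sty1 was measured there on the array with the lowest 5′ signal. The 7 control probe sets at 3′ ends averaged -0.62 on Spc1 replicate 1 and between -0.0035 and 0.039 elsewhere, and relative to them sty1 read 1.66 on that array and 1.46 on Spc1 replicate 2. Scaled to these controls, the difference between Spc1 and empty vector was 2.61, of which 0.29 is the shift that this scaling gave to all probe sets. Without Spc1 replicate 1 it was 2.54. A fit that took this 5′ to 3′ measure as a covariate gave 2.32, with an interval of -0.16 to 4.79 that includes no difference. For Spc1K49R against empty vector that fit gave 0.97. The estimate of the sty1 difference was thus of like size without the array with low 5′ signal, but it then rested on Spc1 replicate 2 alone. The array labelled Spc1K49R replicate 2 had a 5′ minus 3′ difference of 0.34, within that range, and a mean of 0.039 over the 3′ controls, the highest of the 6 but close to 0.

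No other probe set followed sty1 closely in the size of its changes over the 6 arrays. Likeness was measured as the root mean square distance between 2 profiles after each was centred on its own mean, in log2 units. A flat profile lies 1.21 from that of sty1, the nearest of the 8959 other probe sets lay at 0.955, and 61.5% lay no nearer than a flat profile would. The nearest of any kind was the unnamed probe set 1776804_at, followed by BAG7 at 0.969, the unnamed 1775210_at at 0.980, a probe set for YPL152W-A at 0.985 and mam2 at 0.996. BAG7 and YPL152W-A are genes of the budding yeast Saccharomyces cerevisiae, whose probe sets the array also carries. Whether these probe sets read a similar S. pombe transcript was not tested. BAG7 read -0.11 and -0.25 with empty vector, 0.33 and 0.11 with Spc1, and 0.41 and -0.33 with Spc1K49R. It thus had the same high and low arrays as sty1, but its range was 0.74 against 2.86. YPL152W-A and 1776804_at divided the arrays in the same way, and the share of all probe sets that did so was not counted. Pearson's r, which compares shape alone, was taken only for probe sets with a range of at least 1, which leaves BAG7 out. The set of nearest probe sets also changed with the arrays used, since leaving out 1 array kept between 0 and 3 of the 5.

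Among the 76 S. pombe probe sets with a name, sty1 had the largest range over the 6 arrays, 2.86 log2 units, ahead of dad3, a gene of the DASH complex at kinetochores, with 2.69. Over all probe sets the median range was 0.57 and sty1 ranked 187. These names come from the authors' deposited tables, so each named gene had already been picked by the study on these arrays. The nearest named gene was mam2, which encodes the receptor for the pheromone P-factor. Its empty-vector values were -0.26 and -0.43, its Spc1 values 0.57 and -0.0016, and its Spc1K49R values 0.42 and 0.0016, so it shared with sty1 the higher value on Spc1K49R replicate 1 but not the high value on Spc1 replicate 2. The next named genes were SPAC22H10.06c, which the deposited tables call dubious, at a distance of 1.02, the cell agglutination gene mam3 at 1.05, cuf2, which encodes a transcription factor of the copper-regulator family, at 1.07, and mei2, whose RNA-binding product drives entry into meiosis, at 1.10. On the array labelled Spc1K49R replicate 2, SPAC22H10.06c read 0.06, mam3 0.01 and mei2 0.12, none of them near their empty-vector values of -0.58 to -0.19. For cuf2 that array read -0.39, next to -0.35 on Spc1K49R replicate 1. None of the 5 nearest named genes therefore shared the drop of sty1 between the 2 Spc1K49R arrays in size, the largest such drop being the 0.42 of mam2.

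**Figure D5:**
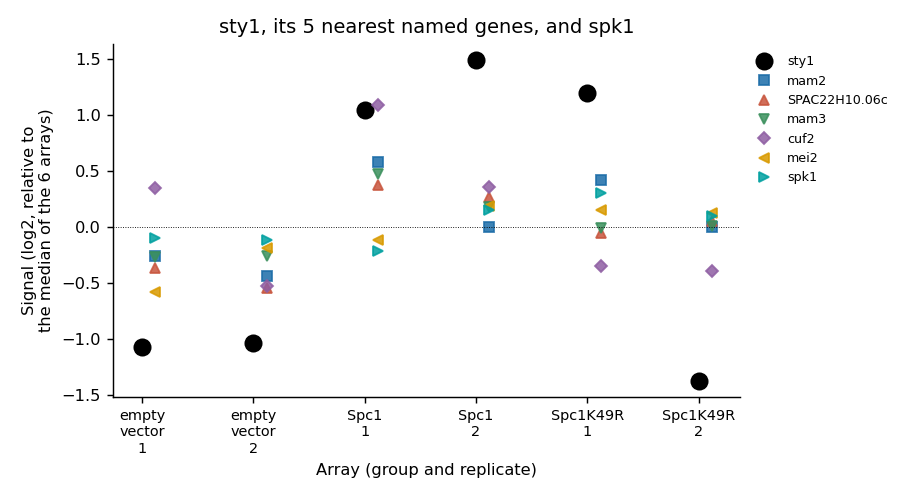
The log2 signal relative to the median of the 6 arrays is plotted on each array for sty1 (black), for the 5 named S. pombe genes nearest to it, and for spk1. The other genes stay between -0.58 and 1.09, and on the array labelled Spc1K49R replicate 2 sty1 lies well below all of them at -1.37.

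Of the pathway around Spc1, little could be read. The list of related genes held 34 genes, all found in the gene table, and 2 of them had a named probe set, sty1 itself and spk1. None of the 8 upstream genes, the 4 phosphatase genes, the 9 effector genes or the 10 stress target genes had one, so wis1, atf1, pyp2 and gpd1, for example, are not analysed here. The gene spk1 encodes the MAP kinase of the pheromone pathway, a relative of Spc1 in a separate cascade. Its empty-vector values were -0.10 and -0.11, its Spc1 values -0.21 and 0.15, and its Spc1K49R values 0.30 and 0.10. The spk1 difference from empty vector was 0.07 (SE 0.18) with Spc1 and 0.31 (SE 0.18) with Spc1K49R, and neither passed by limma, with adjusted p values of 0.903 and 1. The range of spk1 over the arrays was 0.52, against 2.86 for sty1, and its Spc1K49R arrays differed by 0.20 where those of sty1 differed by 2.57.

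The deposited tables annotate 6 named S. pombe probe sets with the process cellular response to stress, and this set was chosen after the tables were read. None of the 6 passed the test by limma in any comparison. With Spc1 0 of the 6 had a mean above and 6 a mean below that of the empty vector, with a median difference of -0.52 against -0.05 over all probe sets. The study picked these probe sets on the same arrays, so the count is not independent evidence of a direction. The share of all probe sets with a mean below that of the empty vector was not counted. For 4 of the 6 both Spc1 arrays lay below both empty-vector arrays, an order that 14.4% of all probe sets had. SPAC27D7.09c, of the But2 family, had 0.68 and 0.02 on the empty-vector arrays and -1.53 and -0.50 on the Spc1 arrays. The carbonic anhydrase gene nce103 (SPBP8B7.05c) had 0.13 and 0.24 on the empty-vector arrays and -0.23 and -0.38 on the Spc1 arrays. The mitophagy receptor gene atg43 (SPAC14C4.01c) had -0.11 and 0.11 on the empty-vector arrays and -0.75 and -0.33 on the Spc1 arrays. SPAC11D3.09, a predicted agmatinase gene, had 0.45 and 0.20 on the empty-vector arrays and -0.0078 and 0.0078 on the Spc1 arrays. The other 2, SPBC23G7.10c and git11, overlapped. For git11, which encodes the gamma subunit of the G protein in glucose signalling, the Spc1 arrays read -1.65 and 0.15, so its lower mean came from Spc1 replicate 1, the array with low 5′ signal. Without that array 5 of the 6 lay below the empty-vector mean. With Spc1K49R 2 of the 6 were above and 4 below the empty-vector mean, with a median of -0.21 against 0.0025 over all probe sets. On the array labelled Spc1K49R replicate 1, where sty1 was raised, 2 of the 6 lay inside their empty-vector values, 2 below and 2 above. The shares of all probe sets in these positions were not counted, so the positions only describe the 6. SPAC27D7.09c at 0.27 and nce103 at 0.14 lay inside, SPAC11D3.09 at -0.13 and SPBC23G7.10c at -0.12 below, and git11 and atg43, both at 0.12, above. The Spc1K49R difference from empty vector was -0.40 (SE 0.15) for SPAC11D3.09, for which limma gave a p of 0.0453 before adjustment and 1 after it. It was the 1 member under 0.05 there by limma before adjustment, against 0.0893% of all probe sets. For Spc1 against empty vector 2 of the 6 were under it, against 1.21%, and for Spc1K49R against Spc1 2, against 1.02%. As the study picked these probe sets on the same arrays, such counts carry no test.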

How the data were processed

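RNA of 6 samples was hybridised to Affymetrix Yeast Genome 2 arrays after extraction and biotin labelling, as the labels state. The log2 values in the deposited series table had been normalized between arrays by the authors. That method is not given in the sources used here. Every probe set has a median of 0 over the 6 arrays, and the log base follows from the deposited fold changes. The authors' comparison tables give a linear fold change, a log2 fold change and a p-value without adjustment for the probe sets listed. Signal filters, per the file headers, kept those above the 10th percentile of raw signal, and a moderated test was used with no multiple testing correction. Mutant B, mutant C and wild type are not named so in the labels, and were taken as Spc1, Spc1K49R and empty vector because their fold changes match differences of the series table (correlation across listed probe sets 0.970 to 0.995). The tables' 6 columns of group means were not used.

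After 173 control probe sets were set aside, limma 3.58.1 in R 4.3.3 (lmFit, eBayes, two-sided) was fitted to 8960 probe sets and 6 arrays with a mean per group, and p-values were adjusted by Benjamini-Hochberg over all of them per comparison. The fit was tested on simulated data. The number of arrays limits the precision, and with centred values a filter on dim probe sets was not possible. Named genes were sty1, the 5 nearest named and the 5 nearest probe sets of any kind by profile, and the members of the pathway lists with a name. Probe sets 1774882_at and 1769322_s_at, dad3 and the stress annotation were added after their values were seen. The members and lists were chosen with earlier results of these data known. Of 76 named S. pombe probe sets 74 matched the gene table of assembly ASM294v3, used for names and overlap of genes alone. Replicate numbers of the labels were also fitted as a block, and each array was left out in turn.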

Additional observations from a re-analysis of the deposited data

Results flagged for a closer look

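Signal appeared in control probe sets that no comparison used. For poly-A spike-in controls, with 39 probe sets, the median was 5.23 on the first and 1.34 on the second Spc1 replicate, the 2 arrays with raised sty1 in the Spc1 group. On the empty-vector arrays their median was 0.15 and -1.13, on Spc1K49R replicate 1, where sty1 was also raised, it was -0.16, and on the array labelled Spc1K49R replicate 2 it was -0.58. For the 27 hybridization controls the median on Spc1 replicate 1 was 3.15. On the remaining arrays it was between -0.46 and 0.54, with 0.16 on Spc1 replicate 2. The part of these signals in the sty1 values was not tested.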

How the results depend on the processing

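The sty1 difference between Spc1 and empty vector kept its direction, and missed the threshold where limma gave a test, in all 15 alternatives, with values from 2.09 to 2.61. Several of these settings could not move the value and bear on its spread alone. They were robust variances, array weights, the replicate block, the 2 compared groups alone, and leaving out an array of the group not compared. Each of them gave 2.32. With array weights its interval was -3.92 to 8.55, which includes no difference. With robust variances, the replicate block and the 2 compared groups alone it was 0.14 to 4.50, 0.22 to 4.41 and 1.66 to 2.97. With each array left out in turn the difference ranged from 2.09 to 2.54. The difference between Spc1K49R and empty vector ranged from -0.31, a reversal without Spc1K49R replicate 1, to 2.25 without the array labelled Spc1K49R replicate 2. It kept its direction in the other 13 of 14 alternatives, where the same kinds of setting left it at 0.97 by design. The difference between Spc1K49R and Spc1 ranged from -2.63 to -0.07 with an array left out. With both Spc1 replicate 1 and Spc1K49R replicate 2 left out, a choice made after seeing the data, these differences were 2.54, 2.25 and -0.29. The probe sets that passed numbered 0 in each comparison with limma, and at an unadjusted p under 0.05 there were 108, 8 and 91 for Spc1 against empty vector, Spc1K49R against empty vector and Spc1K49R against Spc1. With an array left out these counts ranged from 0 to 2968, from 0 to 0 and from 0 to 3234, both high counts arising without Spc1 replicate 2, when Spc1 replicate 1 stood alone. Of the 5 named genes nearest to sty1, 2 stayed when Pearson's r replaced the distance, and between 1 and 4 stayed with an array left out. Of the 5 nearest of any kind, between 0 and 3 stayed with an array left out. The cause of these changes was not tested.

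With the replicate number as a block the sty1 differences were 2.32, 0.97 and -1.35, with adjusted p by limma of 0.769, 1 and 0.681, and 0 probe sets passed in each comparison. Deviations of same-numbered arrays correlated across probe sets at 0.47 between empty vector and Spc1, 0.07 between empty vector and Spc1K49R and 0.10 between Spc1 and Spc1K49R. The labels give shared numbers but do not say that same-numbered arrays were paired, so the main fit did not pair them. The correlation of 0.47 was between the groups of the first comparison, and whether those arrays share a source was not tested. With 2 arrays a group and no raw signal, the signal over background of sty1 is unknown.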
